A study of Mus musculus with 4 samples.

Results

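The genes described here are 10 transcription factor genes of the self-renewal programme known from leukaemias with rearranged MLL: Hoxa5, Hoxa7, Hoxa9, Hoxa10, Meis1, Pbx3, Mef2c, Myb, Sox4 and Runx1. They were chosen by symbol, and all 10 were found among the 16442 genes of the deposited mRNA table. The samples were leukaemia stem cells, the cells that can restart the disease, taken from the bone marrow of C57BL/6 mice with leukaemia. There were 2 groups, wild type (WT) and Rreb1-KO (KO), with 2 biological replicates in each. RREB1 is a transcription factor with zinc fingers that acts downstream of RAS signalling. The labels do not give the age of the mice, the lesion that caused the leukaemia, the part of Rreb1 that was removed, or how many mice went into a library, so the p-values measure only the spread between these 4 libraries. The genotype label of the second KO library names Rreb2 and its title names KO, and the extraction text speaks of TAMs where the titles name LSC. Groups were taken from the titles.

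In normal blood formation the HOXA proteins are high in stem and early progenitor cells and fall as cells mature. They bind DNA together with homeodomain partners of the TALE class, of which MEIS1 and PBX3 are members, and fusion proteins of MLL keep HOXA9 and MEIS1 transcribed. MYB, MEF2C, SOX4 and RUNX1 belong to other families of DNA-binding proteins and act in the same progenitor cells, and several of them are needed for, or add to, the growth of such leukaemias.

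Depth was 16590830 to 18451251 assigned reads per library. Levels are given as FPKM, read fragments divided by the exonic length of the gene and by library depth. For Rreb1 itself the WT values were 5.24 and 6.57 FPKM and the KO values 6.10 and 6.93 FPKM. Its groups overlapped (limma adjusted p = 0.616). A deletion of few exons need not lower such a value, so the genotypes could not be checked from it, and WT and KO stand for the labels throughout. All 12 markers of leukaemia stem cells and granulocyte-macrophage progenitors were above 1 FPKM, among them Kit at 3.65 to 7.36 FPKM, Cd34 at 49.8 to 71.5 FPKM and Fcgr3 at 252 to 344 FPKM. Of 8 markers of normal stem and multipotent cells only Ly6a and Cd48 were in the table, with Ly6a at 1.41 to 2.70 FPKM and Cd48 at 97.9 to 122 FPKM.

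Promoter sequences from RefSeq (GRCm38.p6) matched 9 of the 10 genes, with 13 annotated starts. Pbx3 had no entry. The 250 bases before the start are printed for Hoxa9 and Myb, the members with the highest mean levels, and for the first of the 3 starts of Mef2c, the member with the lowest, so that sequences from both ends of the order of levels can be compared. Each runs 5′ to 3′ on the strand of the gene, with CpG dinucleotides in capitals.
Hoxa9: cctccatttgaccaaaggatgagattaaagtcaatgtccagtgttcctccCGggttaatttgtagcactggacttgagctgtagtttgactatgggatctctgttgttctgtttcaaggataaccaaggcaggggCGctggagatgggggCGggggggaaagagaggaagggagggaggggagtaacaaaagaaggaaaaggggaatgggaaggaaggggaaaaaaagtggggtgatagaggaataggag
Myb: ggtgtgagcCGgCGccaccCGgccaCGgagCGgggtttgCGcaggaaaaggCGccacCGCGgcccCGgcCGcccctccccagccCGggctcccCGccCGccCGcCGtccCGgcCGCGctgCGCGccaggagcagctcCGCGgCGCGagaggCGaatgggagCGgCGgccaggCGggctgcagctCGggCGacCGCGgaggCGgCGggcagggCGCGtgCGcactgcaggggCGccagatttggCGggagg
Mef2c: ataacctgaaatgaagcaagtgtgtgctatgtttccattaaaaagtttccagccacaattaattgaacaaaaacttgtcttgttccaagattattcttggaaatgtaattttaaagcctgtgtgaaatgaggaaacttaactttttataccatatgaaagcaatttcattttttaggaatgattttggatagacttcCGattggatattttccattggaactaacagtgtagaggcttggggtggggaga
The windows lie at chr6:52227371-52227620 (minus strand), chr10:21160985-21161234 (minus strand) and chr13:83503784-83504033 (plus strand), and overlap no annotated exon of GENCODE M21. The Myb window held 40 CpG dinucleotides and 81.2% G or C, the Hoxa9 window 3 and 49.6%, and the Mef2c window 1 and 33.6%. Over all 32851 promoters of the table the medians were 6 and 52.4%. Hoxa9 and Myb, with almost the same mean level, were thus far apart in CpG content of these windows. However, the Hoxa9 window lies inside the annotated gene (52223100 to 52231089), before an internal start. The Myb and Mef2c windows lie just upstream of their whole genes, so the windows differ in position too. The letters TGATTNAT, bound by HOX with PBX proteins, and TGACAG, bound by MEIS proteins, were searched on both strands. Neither occurred in any of the 13 members' windows, against 2.82% and 15.9% of all promoters. The RUNX letters TGTGGT occurred in 1 of the 13, that of Meis1, 166 bases before its start (14% of all promoters), and the SOX letters ACAAAG in 1, the third start of Mef2c (16.5%). CCAAT, a common promoter element, occurred in 8 of the 13 (33.8% of all promoters), and no match overlapped another. A match or its lack describes these letters in this window and no more.

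The order of levels was nearly the same in all 4 libraries. Mean FPKM over the 4 libraries was 31.7 for Hoxa9, 31.6 for Myb, 29.3 for Hoxa7, 18.4 for Hoxa10, 12.5 for Pbx3, 11.4 for Meis1, 5.58 for Runx1, 5.45 for Hoxa5, 3.63 for Sox4 and 0.370 for Mef2c. The ranges of Hoxa9, Myb and Hoxa7 overlapped, and each of these genes came out highest in at least 1 library. Those of Pbx3 and Meis1 overlapped, as did those of Runx1 and Hoxa5, while the other neighbours in the order were apart in every library. Hoxa9 stood at percentile 82.6 of the tested genes by mean FPKM, Meis1 at 61.7 and Sox4 at 31.6. These levels are per length of all annotated exons, 1877 bases for Hoxa5 and 15715 for Mef2c, so a gene with long exons that the cells do not use reads lower.

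**Figure D1:**
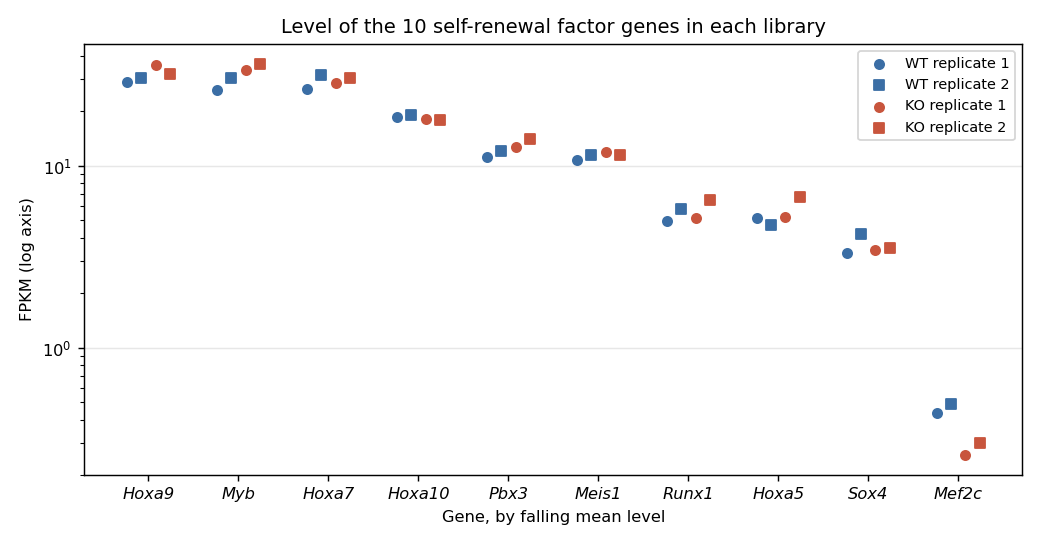
FPKM (log axis) of the 10 genes in each of the 4 libraries, ordered by mean level, with WT in blue and KO in red, circles for replicate 1 and squares for replicate 2. Hoxa9, Myb and Hoxa7 sit together between 26.1 and 36.5 FPKM, and Mef2c lies below 0.5 FPKM with both KO libraries under both WT libraries.

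Between KO and WT, 9 of the 10 genes could be tested with limma on log2(FPKM + 1), since Mef2c was below the mean of 1 FPKM that was asked for. Of these 9, 0 passed an adjusted p of 0.05 in either direction, against 1.01% of all 11768 tested genes (0.603% higher and 0.408% lower in KO). At an unadjusted p below 0.05 there was 1 of 9, Myb, against 20.7% of all tested genes (11.4% higher in KO). Limma-voom on read counts recovered from the FPKM values likewise called 0 of 9 (7.39% of the genes it tested), with 1 at an unadjusted p below 0.05 (24.7%). The log2 changes ran from −0.080 (Sox4) to 0.30 (Myb), with 7 above zero and 2 below and a median of 0.086, beside a median of 0.025 over all tested genes, of which 54.0% were above zero. The 95% limits of the 9 folds reached from 0.752 (Sox4) to 1.47 (Hoxa5 and Myb) on the FPKM + 1 scale. Both KO libraries were above both WT libraries for 5 of the 9 (30.5% of all tested genes) and below them for 1 (24.9%). Replicate 2 was above replicate 1 in WT for 9 of the 10 genes and in KO for 7, against 57.3% and 50.04% of all tested genes.

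**Figure D2:**
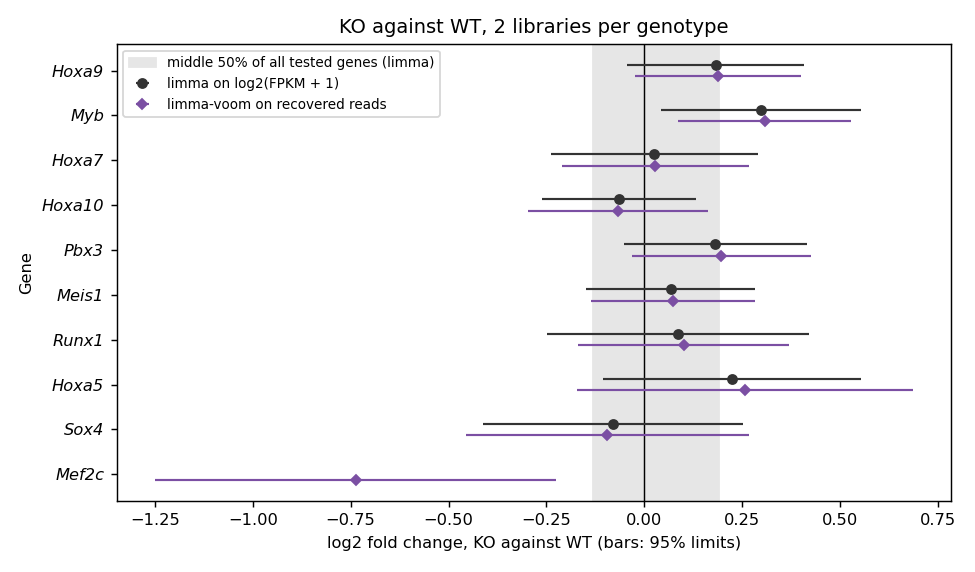
Log2 fold change of KO against WT with 95% limits, for limma on log2(FPKM + 1) (circles) and limma-voom on recovered reads with a mean of at least 10 reads (diamonds), and the middle 50% of all tested genes in grey. 7 of the 9 genes tested by limma lie in the grey band, Myb and Hoxa5 lie to its right, and Mef2c, shown by limma-voom only, is at −0.74.

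The 4 HOXA genes lie in 1 cluster on mouse chromosome 6, all on the minus strand (GRCm38). Hoxa9 (52223100 to 52231089), the HOXA gene most closely tied to leukaemia with rearranged MLL, was at 28.9 and 30.4 FPKM in WT and 35.8 and 31.8 FPKM in KO, from 2811 to 3684 reads. Both KO libraries were above both WT libraries, by little for the second. The log2 change was 0.18 (SE 0.092, limma adjusted p = 0.314), or 0.098 without KO replicate 1. Hoxa10 (52231197 to 52240854), its neighbour in the cluster, was at 18.6 and 19.0 FPKM in WT and 18.2 and 17.7 FPKM in KO. Its replicates were close in both groups, and it lay slightly lower in both KO libraries, with a log2 change of −0.065 (SE 0.081, limma adjusted p = 0.674). The ratio of Hoxa9 to Hoxa10 FPKM was therefore 1.55 and 1.60 in WT and 1.97 and 1.79 in KO, groups that do not overlap. With 2 libraries a group no exact permutation test of this ratio can reach 0.05, and it was not tested.

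Hoxa7 (52214491 to 52221854) was at 26.4 and 31.6 FPKM in WT and 28.5 and 30.4 FPKM in KO. The WT libraries enclosed the KO libraries, and the log2 change was 0.026 (SE 0.11, limma adjusted p = 0.908), less than the gap between the WT replicates. It was −0.10 without WT replicate 1 and −0.018 without KO replicate 2. Of its exonic bases 20.4% are shared with Hoxaas3, an antisense RNA listed at 1.12 to 1.67 FPKM, and how the counting treated such reads is not given. Hoxa5 (52201754 to 52204587) was at 5.14 and 4.72 FPKM in WT and 5.23 and 6.69 FPKM in KO, from 147 to 214 reads. The KO libraries were higher by a narrow margin for replicate 1, and the log2 change was 0.22 (SE 0.14, limma adjusted p = 0.381). It rested on the second KO library, with 0.073 without it and 0.38 without the first. In sum these 4 genes reached 79.1 and 85.8 FPKM in WT and 87.8 and 86.6 FPKM in KO, of which Hoxa9 made up 35.4% to 40.8%, Hoxa7 32.5% to 36.9%, Hoxa10 20.5% to 23.5% and Hoxa5 5.50% to 7.73%.

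The rest of the cluster was low. Hoxa6, between Hoxa5 and Hoxa7, was at 1.80 to 2.89 FPKM (log2 change 0.16, limma adjusted p = 0.659), and Hoxaas3 had a log2 change of −0.10 (adjusted p = 0.770). Hoxa3, Hoxa4 and the antisense RNA Hotairm1, chosen after their values were seen, stayed below 1 FPKM in every library. Hoxa2, Hoxa11 and Hoxa13 were not analysed here. Of 28 listed genes of the Hoxb, Hoxc and Hoxd clusters 1 was in the table, Hoxb13, at 0.860 to 1.75 FPKM (log2 change 0.31, adjusted p = 0.367). Within the cluster the neighbours Hoxa7, Hoxa9 and Hoxa10 thus had the highest FPKM in all 4 libraries.

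**Figure D3:**
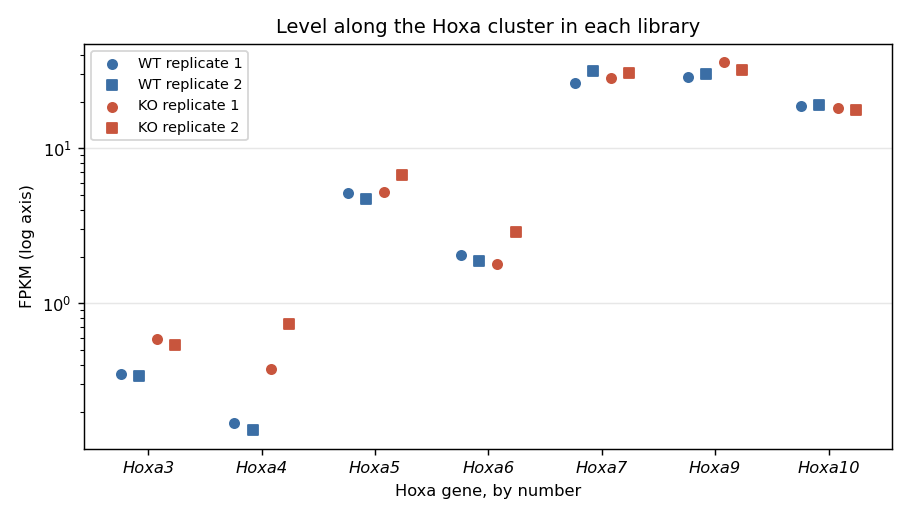
FPKM (log axis) of 7 Hoxa genes in each library, in the order of their numbers, with colours for genotype and shapes for replicate. Hoxa7, Hoxa9 and Hoxa10 lie above 17 FPKM in every library, Hoxa5 between 4.72 and 6.69, Hoxa6 between 1.80 and 2.89, and Hoxa3 and Hoxa4 below 1.

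The TALE partners Meis1 and Pbx3 were at similar levels and neither passed the test. Meis1 (chromosome 11, 18879817 to 19018985), which binds DNA beside HOXA9, was at 10.8 and 11.5 FPKM in WT and 11.9 and 11.5 FPKM in KO, from 2003 to 2309 reads. WT replicate 2 and KO replicate 2 were all but equal, and the log2 change was 0.067 (SE 0.089, limma adjusted p = 0.693), with 0.028 when WT replicate 1 was left out and 0.11 when WT replicate 2 was. Its 95% limits of −0.15 to 0.28 span folds of 0.902 to 1.22. Meis1 shares 18.3% of its exonic bases with the gene models Gm37818 and Gm16140, which were at 1.59 FPKM or less. Pbx3 (chromosome 2, 34171457 to 34373142), the PBX protein most linked to HOXA9 in leukaemia, was at 11.2 and 12.0 FPKM in WT and 12.7 and 14.0 FPKM in KO. The 4 values were close together with the KO libraries on top, and the log2 change was 0.18 (SE 0.096, limma adjusted p = 0.328), or 0.12 without KO replicate 2. The ratio of Hoxa9 to Meis1 FPKM was 2.68 and 2.65 in WT and 3.01 and 2.76 in KO, and that of Pbx3 to Meis1 was 1.04 and 1.05 in WT and 1.06 and 1.21 in KO.

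Myb (chromosome 10, 21124935 to 21160984), needed for the growth of blood progenitors, had the smallest p of the 9. It was at 26.1 and 30.5 FPKM in WT and 33.4 and 36.5 FPKM in KO, from 4298 and 4526 against 5503 and 5548 reads. Both KO libraries were higher, but the WT replicates differed by more than WT replicate 2 and KO replicate 1 did. The log2 change was 0.30 (SE 0.10, 95% limits 0.042 to 0.55, unadjusted p = 0.0292, limma adjusted p = 0.199). By limma-voom the adjusted p was 0.084, and over all alternatives the log2 change ran from 0.19 (WT replicate 1 left out) to 0.41 (WT replicate 2 left out) without passing.

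Runx1 (chromosome 16, 92601466 to 92826149), the DNA-binding subunit of core-binding factor, was at 4.98 and 5.77 FPKM in WT and 5.12 and 6.45 FPKM in KO. Replicate 2 was higher than replicate 1 in both genotypes, the groups overlapped, and the log2 change was 0.086 (SE 0.14, limma adjusted p = 0.746). It was −0.0044 without WT replicate 1 and −0.055 without KO replicate 2. The gene has 2 annotated starts, and a value over all exons does not tell their transcripts apart. Sox4 (chromosome 13, 28948919 to 28953713), an HMG-box factor made from a single exon, was at 3.32 and 4.22 FPKM in WT and 3.45 and 3.54 FPKM in KO, from 289 to 336 reads. Its KO values lay within the WT range, and the log2 change was −0.080 (SE 0.14, limma adjusted p = 0.761), or 0.056 without WT replicate 2. Of its exonic bases 54.6% are shared with the antisense gene model Gm26735, so its level is uncertain.

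Mef2c (chromosome 13, 83504034 to 83667080), a MADS-box factor of lymphoid and myeloid progenitors that is also made in B cells and macrophages, was the lowest member and had the largest relative difference. It was at 0.438 and 0.487 FPKM in WT and 0.256 and 0.299 FPKM in KO, from 127 and 127 against 74 and 80 reads. Both KO libraries lay well below both WT libraries, and the gap between groups was wider than that between replicates. Without the filter on level the log2 change was −0.20 on the log2(FPKM + 1) scale (95% limits −0.51 to 0.11, limma adjusted p = 0.457), a scale that understates changes at such levels. On recovered reads, for genes with a mean of at least 10 reads, it was −0.74 (95% limits −1.25 to −0.23, unadjusted p = 0.00774, limma-voom adjusted p = 0.0751), an alternative chosen after its values were seen. That test called 6.82% of 13210 genes (2.8% as lower in KO), and Mef2c was not among them. Summed markers of macrophages and of B cells were lower in the same libraries. All 14 macrophage markers in the table had reads, and their summed level was 443 to 501 FPKM in WT and 300 to 318 FPKM in KO. Most of this was Cd68 alone, at 290 to 368 FPKM in WT and 226 to 244 FPKM in KO. The 8 B cell markers in the table summed to 219 to 229 FPKM in WT and 122 to 139 FPKM in KO, with Ms4a1, Pax5, Ebf1 and Cd22 not analysed here. Most of that sum was Ighm and Igkc, and the B cell receptor gene Cd79a lay on the other side, at 1.79 and 1.82 FPKM in WT and 3.09 and 3.71 FPKM in KO (limma adjusted p = 0.101). The part of these cells in the Mef2c difference was not tested, and fewer cells of a type cannot be told apart from less RNA per cell.

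Other genes of the pathway were taken from lists of TALE cofactors, relatives and partners, MLL complex genes, reported targets and other self-renewal regulators. With the other Hox genes these held 81 tested genes, of which limma called 0 (23 at an unadjusted p below 0.05). Limma-voom called 17 of 79, 8 higher and 9 lower (21.5%, against 7.39% of all genes it tested). The lists were chosen with earlier results of these data known, so these shares are no test of the pathway. Among TALE cofactors (5 tested, 0 called, median 0.32) Pbx4 was at 23.6 and 27.3 FPKM in WT and 36.5 and 39.2 FPKM in KO, a higher level than that of Pbx3. Its log2 change was 0.56 (SE 0.10, limma adjusted p = 0.0735; 0.00731 by limma-voom). Pknox1 and Pbx2, further homeodomain partners, had log2 changes of 0.32 and 0.47 (limma adjusted p = 0.161 and 0.176), and Tgif1, a TALE repressor, −0.30 (adjusted p = 0.324).

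The relatives and partners of Mef2c, Myb, Sox4 and Runx1 (13 tested, 0 called, median 0.12) lay on either side of zero. Mef2d, a relative of Mef2c, was at 6.44 ± 0.798 FPKM in WT and 4.61 ± 0.267 FPKM in KO (SD, n = 2 libraries each, limma log2 change −0.40, adjusted p = 0.163; 0.0465 by limma-voom). Ep300, a coactivator that MYB binds, had a log2 change of 0.36 (adjusted p = 0.191; 0.0369 by limma-voom), Hdac4, which represses MEF2 proteins, 0.30 (adjusted p = 0.254), and Cbfa2t3, a corepressor of the RUNX1T1 family, 0.23 (adjusted p = 0.244). In the MLL complex list (28 tested, 0 called, median 0.14) 22 were above zero. Aff1, a subunit of the elongation complex that fuses with MLL in leukaemia, was at 4.05 and 4.88 FPKM in WT and 7.66 and 7.74 FPKM in KO (log2 change 0.68, SE 0.12, limma adjusted p = 0.0673; 0.00135 by limma-voom). Paf1, Dot1l and Kmt2b, which act in transcription through chromatin, had log2 changes of 0.25, 0.34 and 0.48 (limma adjusted p = 0.191, 0.198 and 0.199). By limma-voom the adjusted p was 0.125, 0.0619 and 0.0282 in the same order. Kmt2a, the gene of MLL, chosen after its values were seen, had a log2 change of 0.40 (limma adjusted p = 0.238, 0.0335 by limma-voom). Ash2l, a core subunit of the MLL complexes, chosen after its values were seen, lay below zero with a log2 change of −0.58 (limma adjusted p = 0.200, 0.0329 by limma-voom).

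Reported targets of HOXA9, MEIS1 or MYB did not follow 1 direction (20 tested, 0 called, 9 above and 11 below zero, median −0.050). The receptor gene Flt3 was at 26.2 and 28.2 FPKM in WT and 19.5 and 17.7 FPKM in KO (log2 change −0.52, SE 0.092, limma adjusted p = 0.0692). Cd34 had a log2 change of −0.47 and the chemokine gene Ccl4 one of −0.93 (limma adjusted p = 0.0650 and 0.0573). The receptor gene Kit lay on the other side, at 3.65 and 4.25 FPKM in WT and 7.36 and 7.15 FPKM in KO (log2 change 0.74, SE 0.11, limma adjusted p = 0.0512). All 4 were called by limma-voom, with adjusted p of 0.00581, 0.00759, 0.00314 and 0.000605 in the order given. Their values were further apart between genotypes than those of Hoxa9, Meis1 or Myb. However, these 4 were named for the smallest p of the 20, so that contrast follows from the choice and does not describe the list. Among the other regulators (15 tested, 0 called, median 0.13) 13 were above zero. Gata2, a stem cell factor also made in mast cells and basophils, had a log2 change of −0.58, Gfi1b, of erythroid and megakaryocyte cells, −0.66, the chromatin factor Prdm16 0.38 and the ETS factor Fli1 0.18 (limma adjusted p = 0.0869, 0.145, 0.233 and 0.292). By limma-voom the adjusted p was 0.00591, 0.0499, 0.0368 and 0.264 in the same order.

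**Figure D4:**
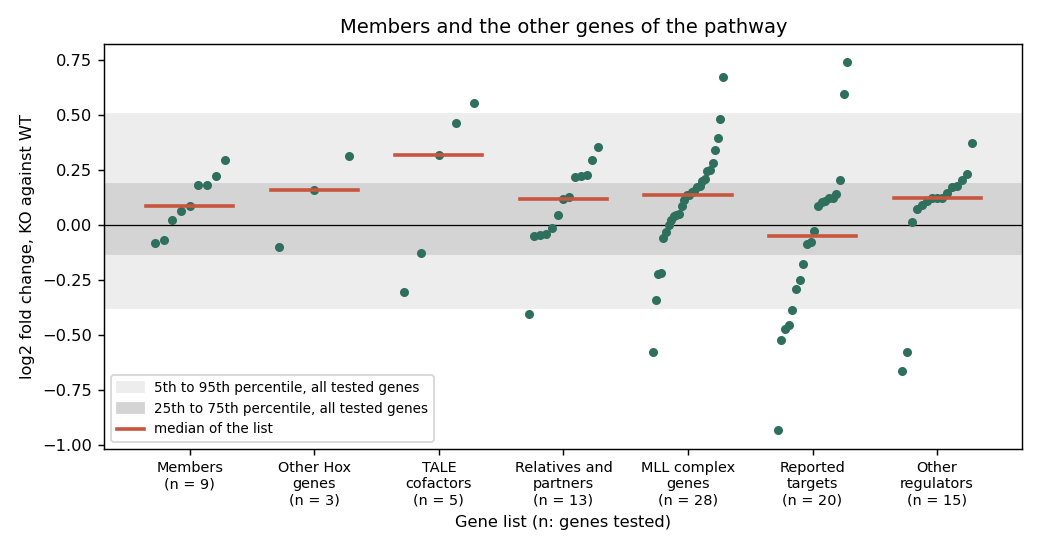
Log2 fold change of KO against WT for each tested gene (points) of the members and of the other pathway lists, with the median of each list as a red bar and percentiles of all tested genes as grey bands. The members spread from −0.080 to 0.30, while reported targets reach from −0.93 (Ccl4) to 0.74 (Kit).

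Markers of mature cells differed far more than the members did between the same libraries. Of 15 tested neutrophil markers 10 rose (Camp, Ngp, Lcn2, Mmp9, S100a8, S100a9, Retnlg, Padi4, Stfa1 and Stfa2), with a list median of 1.18. In that list 12 were above zero and 3 below. The 3 were Ltf, Mmp8 and Cxcr2, with log2 changes of −0.055, −0.041 and −0.11 (limma adjusted p = 0.915, 0.921 and 0.680). Of 11 macrophage markers 4 fell (C1qa, C1qb, C1qc and Lgmn), and of 6 B cell markers 3 fell (Ighm, Igkc and Jchain). Of 9 erythroid markers 5 rose, the globin genes Hba-a1, Hba-a2, Hbb-bs and Hbb-bt and the haem synthesis gene Alas2. Other genes of that list, chosen after their values were seen, lay on the other side: Car1 had a log2 change of −2.67 (limma adjusted p = 0.0532, 0.00463 by limma-voom), Klf1 −0.72 and Gata1 −0.61 (limma adjusted p = 0.207 and 0.227). Siglecf and Ear6 of eosinophils rose, and Prss34 and Cpa3 of basophils and mast cells fell, in a list with 5 above and 4 below zero. The basophil gene Mcpt8, chosen after its values were seen, did not fall. It was at 38.4 and 36.1 FPKM in WT and 42.2 and 44.8 FPKM in KO (log2 change 0.22, limma adjusted p = 0.217). Among the 12 stem and progenitor markers (8 above and 4 below zero) the lectin gene Cd33 rose, from 34.5 and 35.1 to 58.9 and 64.3 FPKM (limma adjusted p = 0.0200). Mpo, chosen after its values were seen, lay on the other side, at 399 and 309 FPKM in WT and 192 and 166 FPKM in KO. Its log2 change was −0.97 (limma adjusted p = 0.0532, 0.00028 by limma-voom). Limma called none of the 8 T and NK cell markers and 2 markers of normal stem and multipotent cells tested. It also called none of the 2 megakaryocyte and 3 stromal and endothelial markers tested. The smallest limma p in each list was that of Trbc1, Cd48, Pf4 and Cxcl12. In these lists limma-voom called Thy1 and Col1a1 as higher and Gzma and Cxcl12 as lower in KO (adjusted p = 0.0159, 0.0409, 0.0118 and 0.000169). Over all marker lists limma called 27 of 77 tested genes (35.1%), against 1.01% of all tested genes. These lists too were chosen with earlier results of these data known, so this share is no test. Leaving out WT replicate 1 gave 4 calls and leaving out WT replicate 2 gave 6, while dropping the first or the second KO library gave 16 or 9. The part of these cell types in the members' values was not tested.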

How the data were processed

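The tools named in the submitters' processing notes are HISAT2 2.1.0, featureCounts, CASAVA and DESeq2, and the build is GRCm38. Their roles are not stated there. The values the authors deposited form 1 table whose unit, inferred from the values, is FPKM with 1 added, and the 1 was subtracted. Matched by symbol to GENCODE M21 for 16014 of 16442 genes, FPKM times exonic length gave whole reads (tolerance 0.05) in all 4 libraries for 15787 genes, the 10 members included. How reads of overlapping genes were counted, and whether strand was used, is not stated.

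Differences were tested with limma 3.58.1 (R 4.3.3, trend form, group as the only term, two-sided) on log2(FPKM + 1), for the 11768 genes whose mean reached 1 FPKM, with Benjamini-Hochberg adjustment over all of them at 0.05. The fit had 2 residual and 4.10 prior degrees of freedom. Fold changes on this scale understate the change of low genes. limma-voom was run on recovered reads with the recovered depths as library sizes. The procedure was run on simulated reads with a fixed spread for all genes that was not estimated from these libraries. That run therefore does not show which differences could be detected here. Replicates differed by more than sampling noise (mean chi-square per gene 11.0 for WT and 13.1 for KO).

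The members and lists were chosen with earlier results of these data known. All members are named, with each list's called genes or else up to 4 tested genes of smallest p, and, for the Hox, TALE and relatives lists only, the one with the highest mean. In the marker lists without a call only the first of these is printed.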

Additional observations from a re-analysis of the deposited data

How the results depend on the processing

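None of the 10 members was called under any alternative in which it was tested. In 4 of these a library was left out and the lone library was assumed to vary like the other group. Over all genes these fits called 6 to 64, so a lack of calls says little. Dropping the filter on level, asking for a mean of 5 FPKM or adding the replicate block cannot alter the log2 change of a tested member. Such unaltered values are counted among the members' 99 alternative values, of which 94 kept their direction. The exceptions were Hoxa7 (−0.10 without WT replicate 1 and −0.018 without KO replicate 2, and up to 0.15 without WT replicate 2), Runx1 (−0.0044 without WT replicate 1 and −0.055 without KO replicate 2, and up to 0.23 without KO replicate 1) and Sox4 (0.056 without WT replicate 2, and down to −0.22 without WT replicate 1). The cause was not tested. Leaving out 1 library moved the members' median between 0.028 (WT replicate 1) and 0.17 (WT replicate 2). Mef2c was tested only without the filter on level and by limma-voom with a mean of at least 10 reads, so no library was left out for it. Over all genes, 71 rose and 48 fell, against 22 and 10 without the filter, 108 and 82 with a mean of at least 5 FPKM, 501 and 340 by limma-voom and 531 and 370 by limma-voom with a mean of at least 10 reads. Without 1 library the rises ran from 4 to 50 and the falls from 2 to 14, in fits with fewer samples. Pathway genes, 0 called, gave 3 rises (Aff1, Kit, Pbx4) and 4 falls (Ccl4, Cd34, Flt3, Gata2) with a mean of at least 5 FPKM, and 8 and 9 by limma-voom with either filter. Without 1 library they gave 0 to 0 rises and 0 to 1 falls, Ccl4 without KO replicate 1. Marker genes, 18 rises and 9 falls, gave 10 and 3 without the filter, and 21 falls by limma-voom or 24 with a mean of at least 10 reads. Without 1 library their rises ran from 3 to 13 and their falls from 1 to 3. Replicates share only a number: deviations of same-numbered libraries had a correlation of 0.00900 across genes, and a fit that takes the replicate number as a block gave 40 rises, 26 falls and 0 called members. The read minimum of 10 was chosen after seeing the data. Depth limits the low genes most: Mef2c rests on 74 to 127 reads a library, the other members on 147 or more.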

Other observations

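Hoxa3 and Hoxa4 were below the mean of 1 FPKM asked for in the main test, and their groups did not overlap. They were chosen after their values were seen. For Hoxa4 the WT counts were 5 and 4 and the KO counts 11 and 20. For Hoxa3 they were 39 and 34, against 65 and 55. Hoxa3 shares 27.1% of its exonic bases with other gene models, most of them antisense, so its reads are uncertain. Neither was called by limma-voom with a mean of at least 10 reads (log2 change 0.69 for Hoxa3, adjusted p = 0.191, and 1.59 for Hoxa4, adjusted p = 0.121) or by limma without the filter on level (adjusted p = 0.421 and 0.285).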
